A study of Mus musculus with 6 samples.

Results

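Immunoglobulin transcripts of peritoneal cavity B1a cells were read from the array probes that match immunoglobulin heavy, kappa or lambda chain segments. The members are the non-control probes whose gene name begins with Igh, Igk or Igl, or whose description names an immunoglobulin together with a chain or region word. Of 55681 probes on the array, 101 met this wording and 94 were kept. The 7 set aside were 2 probes each of Rbpj and Bivm and 1 probe each of Rbpjl, Igll1 and Iglon5, which belong to a transcription factor, to immunoglobulin-like genes or to the immunoglobulin superfamily. The 94 members hold 36 heavy variable, 38 kappa variable and 2 lambda variable probes, 15 constant region probes, 1 heavy chain probe whose segment the files do not give, 1 probe beyond the kappa constant region, and 1 probe of Igj, the J chain.

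Cells came from 7-week-old female C57Bl/6 mice and had been sorted as B1a cells by surface markers, CD11b and CD5 among them. The control group was p40-/- CD25+/- (3 arrays) and the compared group was p40-/- CD25-/- (3 arrays), called CD25-deficient here. CD25 is the alpha chain of the interleukin-2 receptor, and both groups lacked p40, the subunit shared by interleukin-12 and interleukin-23. Per the study design each sample held cells of at least 3 mice, so 1 array is not 1 mouse, and p-values measure the spread between these samples.

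A heavy chain gene is assembled by joining a variable, a diversity and a joining segment in the DNA of each B cell, and a light chain gene by joining a variable and a joining segment. The constant region that follows sets the class: mu gives IgM and delta gives IgD from the same transcript by splicing, while the gamma, epsilon and alpha regions are reached by class switching, which deletes the DNA in between. B1a cells are known as a source of natural IgM, with a restricted set of variable segments. The J chain links IgM and IgA into multimers in cells that secrete them.

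Probe sequences are shown for the constant regions, because the results turn on them, as they stand in the deposited array files with mm9 coordinates. They are written 5′ to 3′, and capitals mark a stop codon where the probe ends on it.
IgM (mu), A_51_P485421, chr12:114659630-114659689, minus strand: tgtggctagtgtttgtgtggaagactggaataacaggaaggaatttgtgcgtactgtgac
IgD (delta), A_51_P266248, chr12:114654277-114654336, minus strand: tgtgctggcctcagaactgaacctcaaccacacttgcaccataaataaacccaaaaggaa
IgG1, A_51_P461067, chr12:114567263-114567322, minus strand: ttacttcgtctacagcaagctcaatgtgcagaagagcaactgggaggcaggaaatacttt
IgG2b, A_55_P2063283, chr12:114544738-114544797, minus strand: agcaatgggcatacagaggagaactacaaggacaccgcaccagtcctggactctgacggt
IgG2c, A_55_P2034655, chr12:114525600-114525659, minus strand: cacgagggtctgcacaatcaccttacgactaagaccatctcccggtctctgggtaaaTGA
Unnamed, A_55_P1960148, chr12:114497090-114497149, minus strand: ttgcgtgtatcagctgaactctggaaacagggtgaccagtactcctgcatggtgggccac
Unnamed, A_51_P509679, chr12:114496985-114497044, minus strand: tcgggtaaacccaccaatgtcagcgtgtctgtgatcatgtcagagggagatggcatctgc
Kappa constant, A_55_P2060897, chr6:70676692-70676751, plus strand: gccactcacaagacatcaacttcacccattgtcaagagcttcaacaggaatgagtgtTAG
Lambda constant 1, A_55_P2111322, chr16:19061905-19061964, minus strand: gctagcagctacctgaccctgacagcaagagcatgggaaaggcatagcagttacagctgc
Lambda constant 2, A_55_P2057283, chr16:19198704-19198763, minus strand: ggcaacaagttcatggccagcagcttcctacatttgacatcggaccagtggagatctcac

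No 2 of the constant region probes share a run of 20 or more bases with each other or with another member, the longest run being 11 bases. The coordinates fall in the order that RefSeq gives for the constant genes (GRCm38.p6, used for order and names alone): mu, delta, gamma 3, gamma 1, gamma 2b, gamma 2c, epsilon and alpha. No member is named for gamma 3. The RefSeq table lists Gm900, the name the files give 1 probe, as an older name of Ighe, the epsilon gene. The 2 unnamed probes lie beyond it, on the side where that order places Igha.

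Values are log2 signals relative to the 75th percentile of the same array. Spot brightness at that percentile was 252 to 272 in the control arrays and 66.5 to 162 in the CD25-deficient arrays. All 6 arrays lie on 1 slide and share 1 scan, and 38.8 to 49.8% of probes were well above background on an array. The test took probes that the scanner flags placed well above background in every sample of the control or of the CD25-deficient group. This held for 24753 probes in all and for 82 of the 94 members, of which 75 were well above background on all 6 arrays. Il2ra, which encodes CD25, read 1.62, 1.13 and 1.35 in the controls and -0.31, -0.59 and 0.86 in the CD25-deficient samples (difference -1.38 ± 0.37 SE, adjusted p = 0.119). Whether its probe lies in the deleted part is not given in the sources used here.

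Most of the members called between genotypes were heavy chain constant region probes. Of the 8 constant region probes that the files name by class, 6 were tested: the probes of IgG1, IgD, IgG2b, IgG2a and IgG2c were higher in CD25-deficient cells and the IgM probe was not. The IgG2a and IgG2c probes lie next to each other and may read 1 gene, so that these are 5 probes and not 5 classes. Each of the 5 was above all controls on all 3 CD25-deficient arrays. Over all tested probes, groups that did not overlap had the CD25-deficient samples above in 15.6% and below in 19.6%. Calls follow the study's thresholds (2-fold, and p no larger than 0.05 before adjustment), which 6 of the 82 tested members passed as higher and 1 as lower. Over all 24753 tested probes 2.38% (589) passed as higher and 1.26% (311) as lower, a split that quantile normalization turned to 446 and 559. After Benjamini-Hochberg adjustment over all tested probes, 1 member, the IgG1 probe A_51_P461067, had an adjusted p under 0.05 by limma, against 0.0808% of all tested probes. That probe entered the test through the CD25-deficient group alone, so it had to differ, and its adjusted p of 0.00157 rests on control values below background and is no support. In bulk RNA of this kind, more cells of a class and more transcript per cell cannot be told apart.

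**Figure D1:**
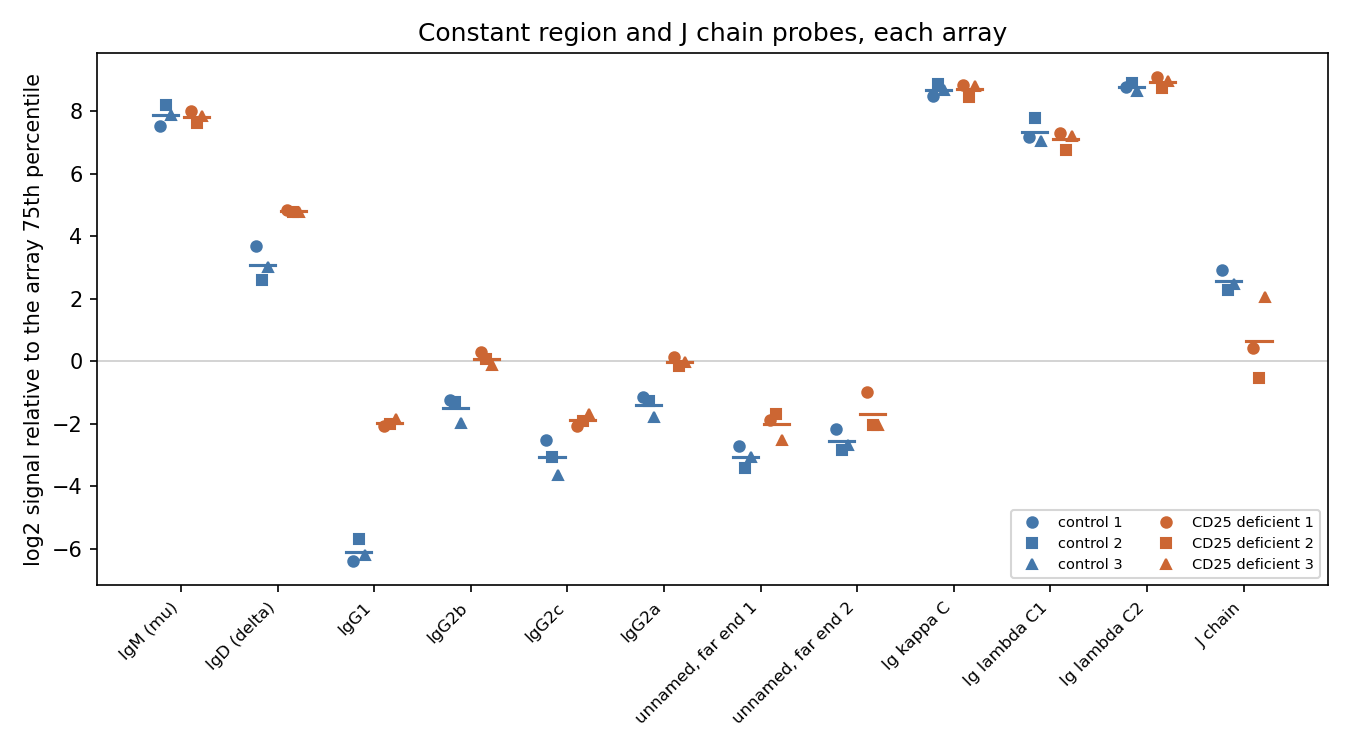
Log2 signal relative to the array's 75th percentile (vertical axis) of 11 tested constant region probes and the J chain probe (horizontal axis) on each of the 3 control (blue) and 3 CD25-deficient (orange) arrays, with bars at the group means. IgD, IgG1, IgG2b, IgG2c and IgG2a lie above the controls on every CD25-deficient array, while IgM and the kappa and lambda constant probes overlap.

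IgG1 is a class made after switching, and its tested probe was higher in CD25-deficient cells. Probe A_51_P461067 read -6.40, -5.70 and -6.21 in the controls and -2.08, -2.01 and -1.86 in the CD25-deficient samples. The scanner placed it above background on 0 of 3 control and 3 of 3 CD25-deficient arrays. In scanner brightness it read 3.11, 4.87 and 3.66 in the controls and 30.9, 16.5 and 44.5 in the CD25-deficient arrays. Set against the lowest signal that is well above background on each control array, its scaled level was at least 4.98-fold higher in CD25-deficient cells (group means as measured -1.98 and -6.10). The bound holds for these scaled values alone. On them, probes not well above background on any array had a median difference of 1.19. A second IgG1 probe, A_55_P2066173, was well above background on 2 arrays of each group and was not tested. It read -4.24, -4.34 and -5.60 in the controls and -3.36, -2.06 and -3.31 in the CD25-deficient samples, and its brightness overlapped between groups, at 13.9, 12.4 and 5.61 against 12.7, 15.9 and 16.3.

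IgD, the class co-expressed with IgM on resting B cells, was higher in every CD25-deficient sample. Its probe read 3.69, 2.59 and 3.00 in the controls against 4.85, 4.78 and 4.78 in the CD25-deficient samples. The 3 CD25-deficient values lay within an SD of 0.04, while the controls spread with an SD of 0.56. The difference was 1.71 ± 0.27 SE (3.27-fold, adjusted p = 0.0769).

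The IgG2 classes were higher as well. The IgG2b probe read -1.24, -1.30 and -1.97 in the controls and 0.28, 0.07 and -0.11 in the CD25-deficient samples, a difference of 1.58 ± 0.23 SE (adjusted p = 0.0769). A probe described as IgG2a read -1.16, -1.27 and -1.77 against 0.12, -0.14 and -0.02, a difference of 1.38 ± 0.20 SE (adjusted p = 0.0769). C57Bl/6 mice are known to carry the IgG2c gene in place of IgG2a, and this probe, called IgG2a here after its description, maps next to the IgG2c probe. The IgG2c probe itself read -2.53, -3.05 and -3.63 against -2.06, -1.91 and -1.70, a difference of 1.18 ± 0.28 SE (adjusted p = 0.103). In none of these 3 did the groups overlap. A second probe of the IgG2b gene, A_55_P2021084, passed the background flag on 0 control arrays and 1 CD25-deficient array and was not tested. Transcripts of the gamma genes are alike, and how far a probe also reads its neighbours was not tested.

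Beyond the gamma genes lie 4 probes for which the files give no class and the gene name Igh-VJ558, that of a variable family. Probe A_55_P1960148 read -2.72, -3.43 and -3.07 in the controls and -1.87, -1.68 and -2.52 in the CD25-deficient samples (difference 1.05 ± 0.27 SE, adjusted p = 0.115), which passed the 2-fold threshold. Its neighbour A_51_P509679 read -2.16, -2.84 and -2.69 against -0.99, -2.03 and -2.03 (difference 0.88 ± 0.32 SE, adjusted p = 0.169), short of 2-fold. The Ighe probe and the other unnamed probe were not well above background on any array.

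IgM, by contrast, read 7.54, 8.21 and 7.87 in the controls and 8.02, 7.61 and 7.85 in the CD25-deficient samples, averaged over 10 spots per array. The difference was -0.05 ± 0.21 SE (adjusted p = 0.897), with overlapping groups. The ratio of each class to IgM needs no scaling between arrays, because both probes are read on the same array. As IgM differed by -0.05, the ratios nearly repeat the scaled differences. A shift that depends on signal level would remain in them. Relative to mu, IgD was higher than the control mean by 1.61, 1.95 and 1.71 log2 units in the 3 CD25-deficient samples. The same measure was 1.64, 1.84 and 1.41 for IgG2b and 1.37, 1.51 and 1.40 for IgG2a. It is not given for IgG1, whose tested probe has only an upper limit in the controls. The values of IgD, IgG2b and IgG2a lay above all 3 controls (exact permutation p = 0.1, two-sided, the smallest that 3 against 3 allows). For IgG2c the values were 0.87, 1.43 and 1.39, and they too lay above the controls (exact permutation p = 0.1). The lowest did so by a margin lost in rounding, control 1 being at 0.87. Both tested probes of unnamed class overlapped on this measure, at 1.06, 1.65 and 0.58 and at 1.42, 0.79 and 0.55, with controls reaching 0.68 and 0.73 (exact permutation p = 0.2 for each).

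**Figure D2:**
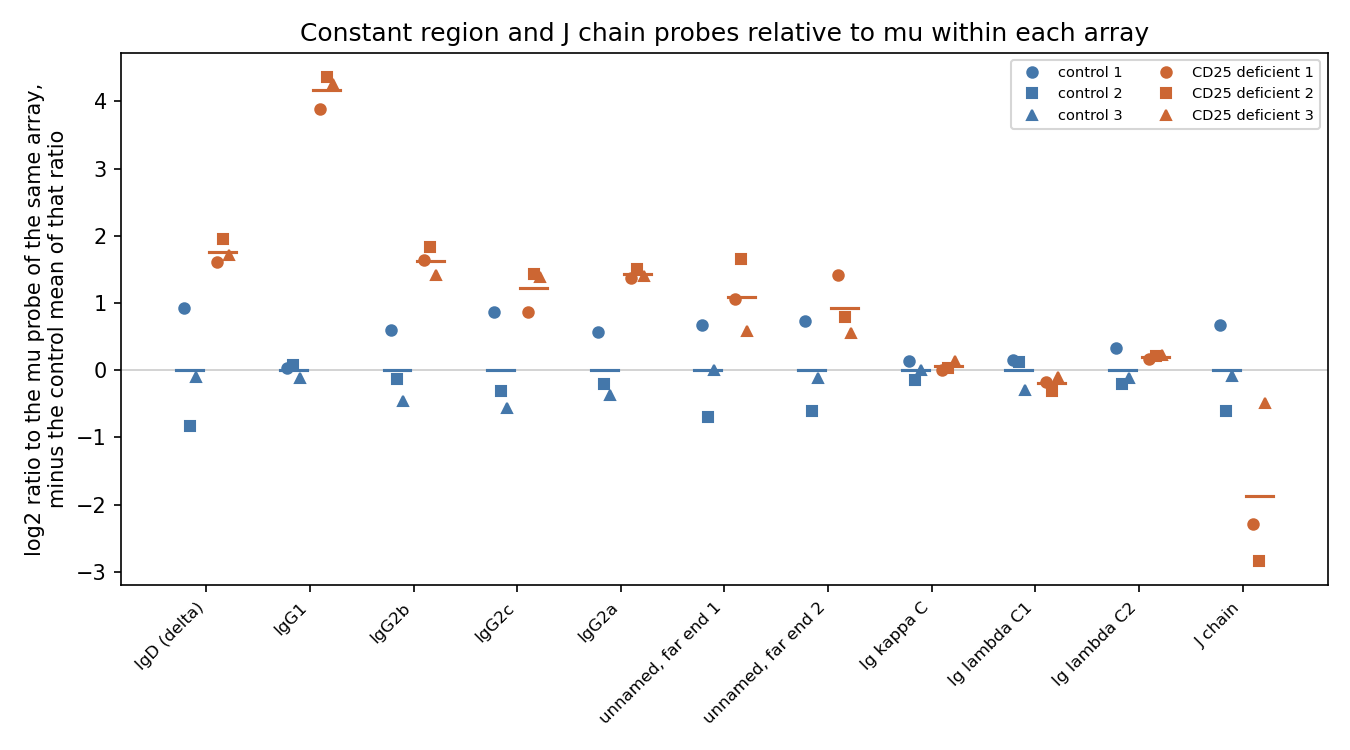
Log2 ratio of each probe to the mu probe on the same array, less the control mean of that ratio (vertical axis), for 10 constant region probes and the J chain (horizontal axis), with group means as bars. IgD, IgG2b and IgG2a stand between 1.37 and 1.95 in the CD25-deficient samples and the light chain probes between -0.31 and 0.23; IgG1 is drawn as measured, with controls below background.

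The scaling matters for these classes. Before scaling, IgG2b brightness was 112, 102 and 69.6 in the controls and 159, 69.9 and 150 in the CD25-deficient arrays, so that the groups overlapped. IgM brightness was 49200, 74500 and 63700 against 33900, 13000 and 37400. Probes that were not well above background on any array had a median difference of 1.19 after scaling, against -0.09 for the tested probes. With quantile normalization IgG2c and A_55_P1960148 fell short of 2-fold, at 0.95 and 0.83. With normexp background correction as well, which adds an offset of 50 to every signal and so shrinks the differences of dim probes, IgG1 (0.70), IgG2b (0.94) and IgG2a (0.87) fell short too, and IgD was the 1 member still called higher.

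Light chain constant regions, which every antibody carries irrespective of class, did not pass a threshold. The kappa constant probe read 8.49, 8.87 and 8.69 in the controls and 8.83, 8.46 and 8.80 in the CD25-deficient samples (difference 0.01 ± 0.18 SE, adjusted p = 0.969). Lambda constant 1 read 7.17, 7.79 and 7.05 against 7.31, 6.77 and 7.22 (difference -0.24 ± 0.25 SE, adjusted p = 0.544). Lambda constant 2 read 8.78, 8.90 and 8.66 against 9.09, 8.73 and 8.98 (difference 0.16 ± 0.16 SE, adjusted p = 0.535). All 3 overlapped between groups, and no spot was saturated. Directions this small follow the scaling: with quantile normalization the kappa probe differed by -0.37 and lambda constant 2 by -0.24. Relative to the kappa probe on the same array, lambda constant 1 differed by -0.25 (exact permutation p = 0.3) and lambda constant 2 by 0.14 (exact permutation p = 0.4). The probe the files call Igk-C maps downstream of the kappa constant probe, matches a cDNA described as unclassifiable, and differed by -0.75 ± 0.61 SE.

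The J chain was the 1 tested member that passed both thresholds as lower. Igj read 2.91, 2.29 and 2.47 in the controls and 0.42, -0.55 and 2.04 in the CD25-deficient samples, a difference of -1.92 ± 0.59 SE (adjusted p = 0.133 by limma). CD25-deficient samples 1 and 2 were low and sample 3 lay just under the lowest control. Without CD25-deficient sample 3 the difference was -2.62 with an adjusted p of 0.0441, while without CD25-deficient sample 2 it was -1.33 (adjusted p = 0.203), and leaving out any other array gave adjusted p from 0.224 to 0.342. Under the test named in the study's methods the J chain was no longer called. Relative to mu the CD25-deficient samples were at -2.28, -2.84 and -0.49, the lowest control being -0.60, so that sample 3 overlapped.

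In a list of 18 genes for antibody secretion that includes Igj, 16 were tested. Igj was the 1 that passed as lower, as did 1.26% of all tested probes, and none passed as higher. An unadjusted p of at most 0.05 was reached by 4 of the 16, a share near the 24.6% of all tested probes. The median difference of the list was -0.36, against -0.09 over all tested probes. Its smallest differences were -0.02 for Creld2, -0.04 for Ell2 and -0.09 for Mzb1. Derl3, a protein of endoplasmic reticulum degradation, read 2.91, 3.21 and 3.42 in the controls against 2.32, 2.19 and 2.57 (difference -0.82 ± 0.19 SE, adjusted p = 0.102). Xbp1, a transcription factor of the secretory programme, differed by -0.52 ± 0.18 SE (adjusted p = 0.157). Sdc1, which marks plasma cells, was flagged above background on all control arrays and on 0 CD25-deficient arrays, and Tnfrsf17 on none of the 6. The lowest level flagged above background was -4.48 to -3.98 on the control arrays and -3.67 to -2.40 on the CD25-deficient arrays, and Sdc1 read -4.11 to -2.68 in the controls, so that its flags cannot be compared between the groups. The summed linear level of the 6 tested of 7 plasma cell markers, Igj among them, was 181 to 196 times the 75th percentile in the controls and 130 to 180 in the CD25-deficient samples, to which Mzb1, Xbp1 and Irf4, which B cells also express, gave most. The part of such cells in the J chain result was not tested.

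Genes for class switching and hypermutation gave no call: of 10 tested, 0 passed in either direction at the 2-fold threshold by limma, and 3 had an unadjusted p of at most 0.05, which 24.6% of all tested probes had. Exo1, an exonuclease of mismatch repair, differed by -0.95 ± 0.18 SE (adjusted p = 0.0888). Of 10 genes for V(D)J recombination 7 were tested, 0 passed, and 0 had an unadjusted p of at most 0.05. Rag1 and Rag2, the recombinase subunits, were not well above background on any array. Of 10 partners of the B cell receptor and surrogate light chain genes, 8 were tested and 0 passed, while Vpreb1 (-0.68 ± 0.19 SE) and Cd81 (-0.51 ± 0.20 SE) had an unadjusted p of at most 0.05, a share of 2 in 8 near that of 24.6% over all tested probes. Cd79a and Cd79b, the signalling chains that carry membrane immunoglobulin, differed by -0.05 ± 0.15 SE and 0.28 ± 0.16 SE.

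Markers of the labelled cells were present on all arrays: the summed level of 6 B cell markers was 1150 to 1190 in the controls and 1190 to 1410 in the CD25-deficient samples, and that of 7 B1a markers 236 to 287 and 237 to 278. By limma 0 of the 6 and 0 of the 7 passed the threshold, while 1 and 2 had an unadjusted p of at most 0.05 (24.6% over all tested probes). Of 5 follicular B2 markers 4 were tested by symbol and 0 passed; the fifth is the IgD gene, whose level is often used to tell B2 from B1a cells. Their summed level was 202 to 236 in the controls and 178 to 213 in the CD25-deficient samples, and Fcer2a, the CD23 gene, read -2.84 to -2.19 and -2.33 to -1.72. Of 9 T cell markers 6 were tested and 1, Cd3d, passed as higher (2.38% over all tested probes), while 2 had an unadjusted p of at most 0.05. The list median was 0.40 and the summed levels were 268 to 281 and 222 to 302, to which Cd2 gave most. Cd3d read -2.10, -3.30 and -2.78 in the controls and -2.54, -1.14 and -0.28 in the CD25-deficient samples. Cd3e, which did not reach 2-fold, read 0.50, 0.26 and 0.51 against 0.75, 1.16 and 1.15. Cd3g went the other way, at 1.05, 0.75 and 0.61 against 0.78, 0.13 and 0.64 (difference -0.28 ± 0.22 SE). The remaining tested markers Lck, Cd4 and Cd2 differed by 0.48, 0.33 and -0.15. Cd8a and Cd8b1, and Gzmb and Eomes of the NK cell list, were flagged above background on 1 array each, that of CD25-deficient sample 3. Of 9 macrophage markers all were tested and 1, Lyz2, passed as lower (1.26% over all tested probes), while 2 had an unadjusted p of at most 0.05. Their summed levels were 34.5 to 81.4 and 28.7 to 51.2. Of 5 NK cell markers and 5 granulocyte markers 1 each was tested, Prf1 and Elane, and neither passed. The part of other cells in the constant region differences was not tested.

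Variable regions gave no call in either direction. Of 76 variable probes 69 were tested and 0 passed at 2-fold by limma, with a median difference of -0.21, while 5 had an unadjusted p of at most 0.05, 3 upwards and 2 downwards, against 24.6% of all tested probes. Single arrays decided this: without control 2, A_52_P157837 was called higher (2.02) and A_66_P102143 lower (-2.16), without CD25-deficient sample 1 A_52_P157837 (1.91) and A_55_P2133929 (1.17) were called higher, and without CD25-deficient sample 2 A_66_P140874 (1.43) was. The groups did not overlap at 2 of the 69, both with the CD25-deficient samples above. Over all tested probes the CD25-deficient samples lay wholly above in 15.6% and wholly below in 19.6%. Variable probes spread between samples of the same group, along different samples for the heavy and the kappa locus.

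**Figure D3:**
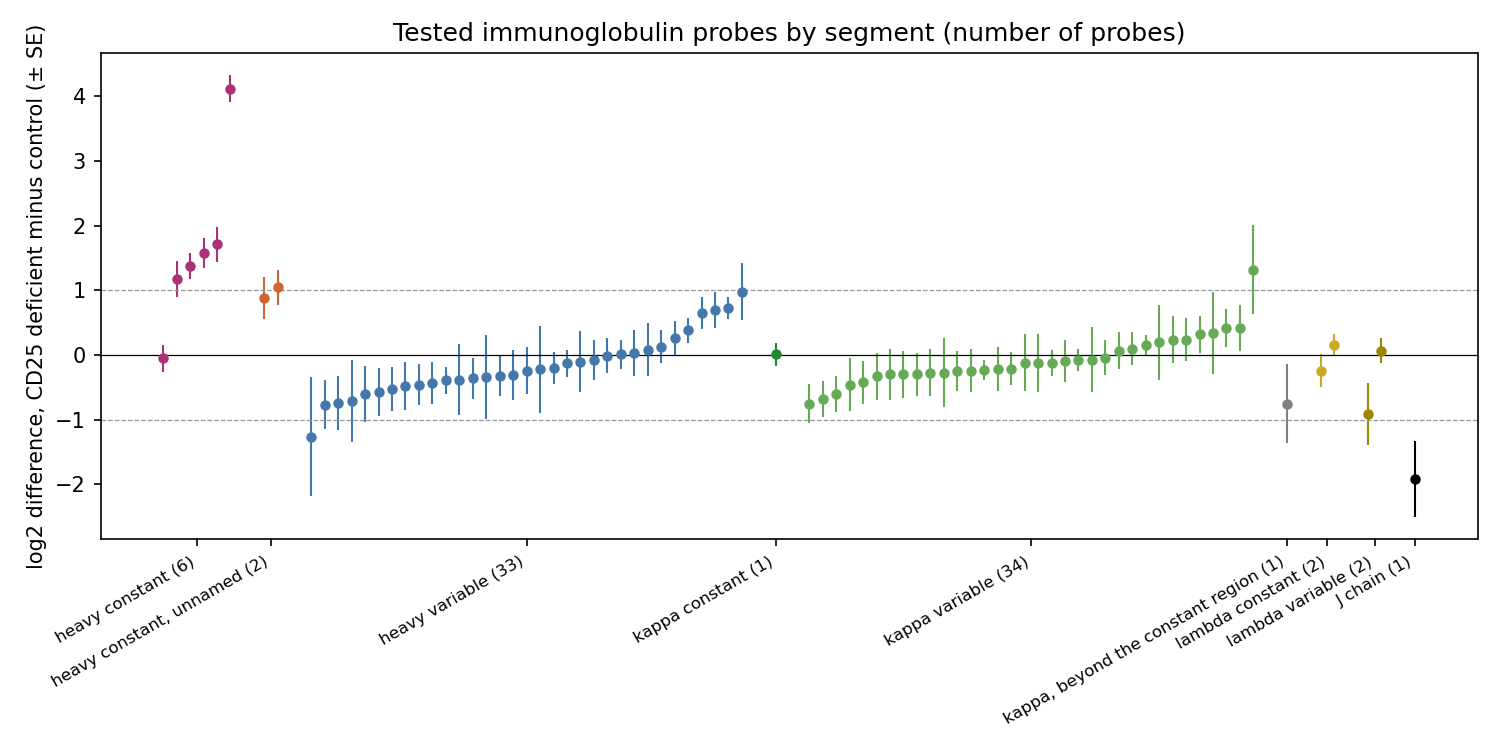
Log2 difference, CD25-deficient minus control, with its SE (vertical axis) for the 82 tested members grouped by segment and ordered by size within it (horizontal axis). Dashed lines mark 2-fold; the IgG1 probe, below background in the controls, has a fitted value of 4.12, the J chain -1.92, and variable probes lie between -1.26 and 1.32.

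Sequences of variable probes are shown to make clear how close they are, with capitals for the run that both probes of a pair share. Many are alike: 21 of the 36 heavy variable probes and 6 of the 38 kappa variable probes share a run of at least 20 bases with another member, and the longest run is 53 bases, in a kappa pair.
Heavy variable, A_55_P2142499, chr12:115895649-115895708, minus strand: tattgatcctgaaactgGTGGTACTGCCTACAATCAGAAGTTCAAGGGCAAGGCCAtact
Heavy variable, A_55_P2075510, chr12:116002746-116002805, minus strand: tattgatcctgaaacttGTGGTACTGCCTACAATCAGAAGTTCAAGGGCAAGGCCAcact
Kappa variable, A_55_P2186978, chr6:69349806-69349865, minus strand: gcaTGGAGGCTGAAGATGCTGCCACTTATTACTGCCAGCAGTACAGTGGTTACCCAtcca
Kappa variable, A_55_P2058023, chr6:69494355-69494414, minus strand: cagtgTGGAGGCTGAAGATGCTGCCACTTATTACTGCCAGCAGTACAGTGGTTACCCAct

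These pairs differed alike, by -0.31 and -0.24 for the heavy pair and by -0.22 and -0.30 for the kappa pair, and how far they read the same transcripts was not tested. A common feature of variable segments is the run of tyrosine and cysteine codons that closes the third framework region. The letters TANTANTGN, searched on the probe strand and the other strand, stood on the probe strand of 14 of the 38 kappa and 3 of the 36 heavy variable probes, against 1.26% of all probes of this length; on the other strand it stood in 0 and 1 of them. In the next 2 probes it is in capitals.
Heavy variable, A_55_P2164784, chr12:114923693-114923752, minus strand: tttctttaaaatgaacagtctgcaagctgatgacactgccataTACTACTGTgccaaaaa
Kappa variable, A_55_P2132532, chr6:68387858-68387917, plus strand: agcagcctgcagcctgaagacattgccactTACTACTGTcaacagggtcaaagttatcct

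Of the 33 tested heavy variable probes, 10 had positive and 23 negative differences, with a median of -0.24. Levels were low in 2 of the 3 CD25-deficient samples. Relative to the control mean of each probe, the median over the 33 probes was -0.48 in CD25-deficient sample 1, -0.43 in sample 2 and 0.25 in sample 3, while the controls stood at -0.19, -0.19 and 0.23. Sample 3 was above the control mean for 26 of the 33 probes, sample 1 for 9 and sample 2 for 6. Controls 1, 2 and 3 were above it for 4, 14 and 26, so that the controls spread as widely on this count. In the J chain and in Il2ra, too, sample 3 lay nearest the controls.

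**Figure D4:**
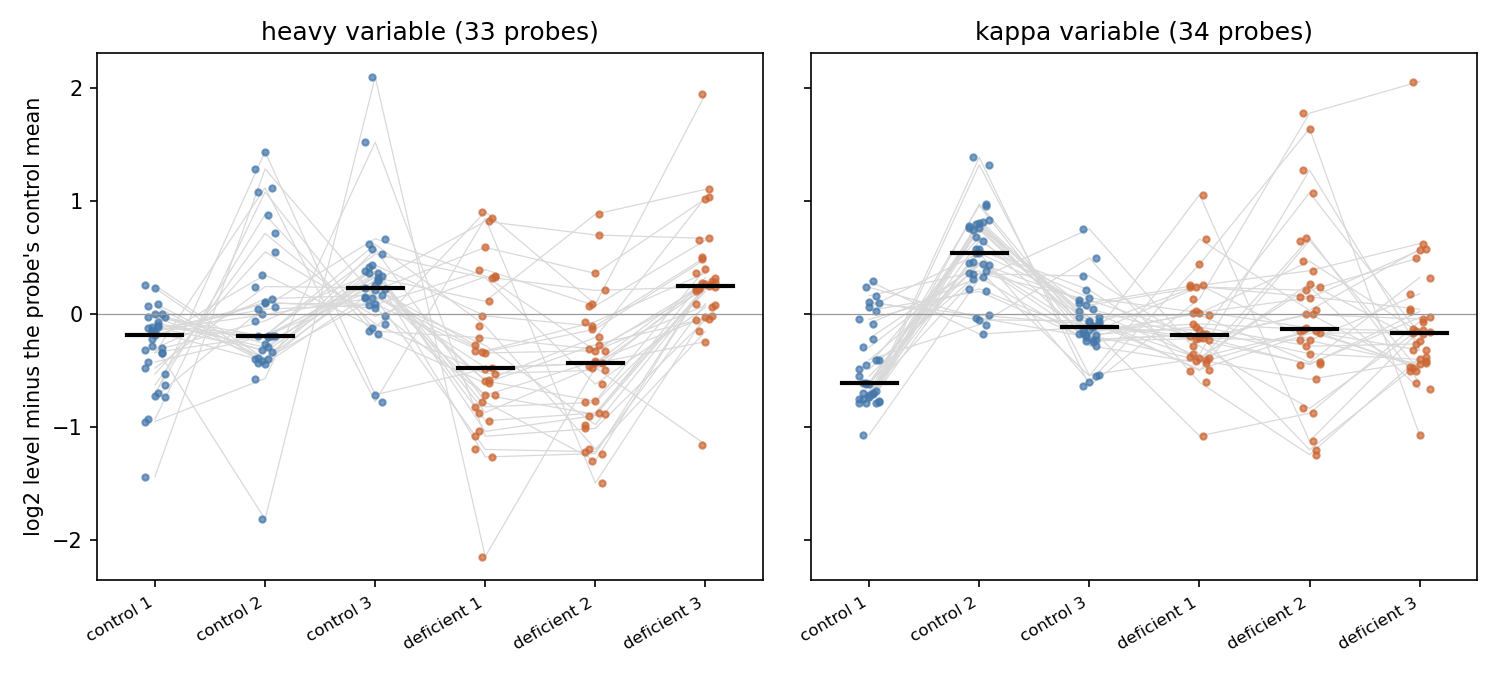
Log2 level of each tested variable probe less its control mean (vertical axis) on the 6 arrays (horizontal axis), for 33 heavy variable (left) and 34 kappa variable probes (right); thin lines join a probe and black bars are medians. Heavy variable probes are low in CD25-deficient samples 1 and 2 (medians -0.48 and -0.43), and kappa variable probes are high in control 2 (0.54) and low in control 1 (-0.61).

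Levels also varied along the locus, in controls as in CD25-deficient samples. Among 30 tested heavy variable probes with a position on chromosome 12, the 15 nearest the constant genes (0 to 1.34 Mb from the first of them) had medians of -0.28, -0.27 and 0.28 in CD25-deficient samples 1, 2 and 3, and the 15 farther ones (1.49 to 2.34 Mb) had medians of -0.72, -0.77 and 0.24. The controls had medians of -0.32, 0.25 and 0.08 in the nearer and -0.08, -0.31 and 0.37 in the farther probes, so that control 2 was lower in the farther probes too, and controls 1 and 3 were higher there. Across these 30 probes the difference between genotypes was correlated with distance (Pearson r = -0.63, Spearman rho = -0.56), as was the level in each CD25-deficient sample less the control mean (r = -0.63, -0.42 and -0.45). These 3 values share 1 control mean, so a trend in that mean would give all of them the same sign. For the controls r was 0.18, -0.57 and 0.55. Their levels are centred on that mean, so mixed signs had to arise, while the size of r was not fixed. This is a description across probes that share the same arrays, and neighbouring probes often share sequence. Many of the farther probes are described as of the large J558 family. Probe A_55_P2140348, which the files call Igh-VJ558, read 2.05, 1.40 and 1.94 in the controls and 0.60, 0.58 and 1.89 in the CD25-deficient samples (difference -0.77 ± 0.38 SE, adjusted p = 0.242). A second far probe, A_55_P1993001, read 3.09, 2.76 and 3.43 against 1.83, 1.86 and 3.36 (difference -0.74 ± 0.42 SE, adjusted p = 0.293). In both, samples 1 and 2 were under all controls and sample 3 was among them. Without CD25-deficient sample 3, 4 members passed as lower in place of 1, these 2, A_55_P2001267 (-1.04) and the J chain. Over all tested probes 484 then passed as lower in place of 311.

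**Figure D5:**
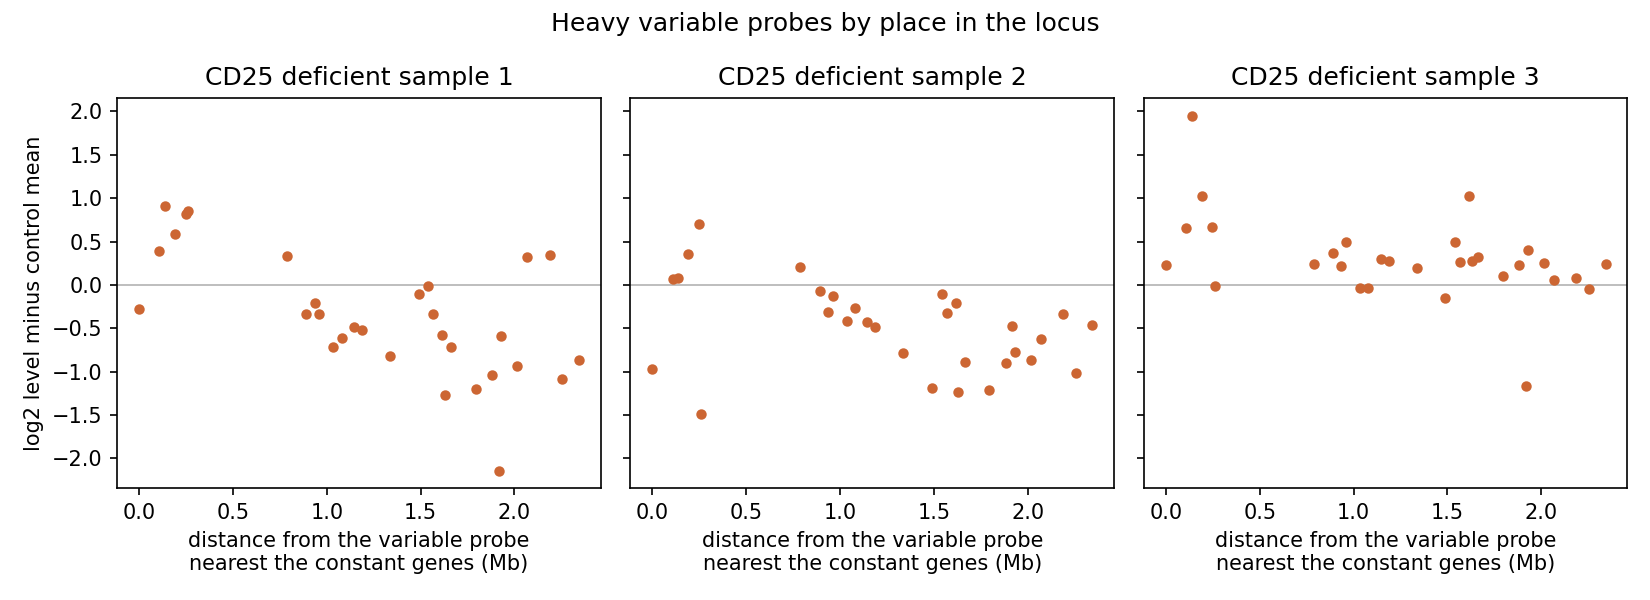
Log2 level less the control mean (vertical axis) of 30 heavy variable probes against their distance from the variable probe nearest the constant genes (Mb, horizontal axis), 1 panel for each CD25-deficient sample. Samples 1 and 2 have medians of -0.72 and -0.77 in the farther 15 probes, and sample 3 has 0.24.

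Near the constant genes a few probes had positive differences. A_55_P2141105 read from -2.09 to -1.61 in the controls and from -1.23 to -1.08 in the CD25-deficient samples (difference 0.73 ± 0.17 SE, adjusted p = 0.103), and A_55_P2181943 differed by 0.65 ± 0.25 SE (adjusted p = 0.177). These are the 2 variable probes whose groups did not overlap, as 15.6% of all tested probes did in this direction, and neither reached 2-fold. The probe A_66_P139367, described as a VH12 rearrangement, is of interest since VH12 is one of the segments by which B1a cells are known.
VH12, A_66_P139367, chr12:115604859-115604918, minus strand: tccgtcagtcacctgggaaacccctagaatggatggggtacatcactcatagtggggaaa
It read 2.93, 4.01 and 3.44 in the controls and 3.79, 3.67 and 3.70 in the CD25-deficient samples (difference 0.26 ± 0.27 SE, adjusted p = 0.531). The CD25-deficient values fell within the range of the controls.

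Kappa variable probes varied most among the controls. Of 34 tested, 11 had positive and 23 negative differences, with a median of -0.12. Relative to the control mean, the median over these probes was -0.61 in control 1, 0.54 in control 2 and -0.12 in control 3, and -0.19, -0.13 and -0.17 in the 3 CD25-deficient samples. Control 2 held the highest value for 20 of the 34 probes and control 1 the lowest for 20. The controls had the larger SD for 27 of the 34 probes, with a median SD of 0.60 against 0.27. Over all tested probes the medians were 0.18 in the controls and 0.25 in the CD25-deficient samples. Probe A_52_P578436 is shown since it was among the 5 members with the highest signal, the others being IgM and the 3 light chain constant probes.
Kappa variable, A_52_P578436, chr6:69193231-69193290, minus strand: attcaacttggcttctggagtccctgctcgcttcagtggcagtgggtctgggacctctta
It read 5.35, 6.70 and 5.82 in the controls and 5.87, 5.82 and 5.48 in the CD25-deficient samples (difference -0.24 ± 0.33 SE, adjusted p = 0.656). The largest kappa difference, at A_52_P157837, was 1.32 ± 0.69 SE (adjusted p = 0.266) from -2.78, -0.64 and -2.66 against -1.89, -0.25 and 0.03, with overlapping groups.

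Lambda variable probes were 2 in number. Lambda variable A_55_P1987406 read 4.82, 6.47 and 5.08 in the controls and 4.66, 3.88 and 5.11 in the CD25-deficient samples (difference -0.91 ± 0.48 SE, adjusted p = 0.271), control 2 again being the highest. A_55_P2147547 differed by 0.07 ± 0.20 SE. Over all 82 tested members the median difference was -0.12, and it was 0.11 without control 2.

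The 12 members that were not tested are 2 named and 2 unnamed constant region probes, 3 heavy variable and 4 kappa variable probes, and the probe whose segment is not given. The last is described as a heavy chain of strain BALB/c, and it was not well above background on any array. Of the members set aside, the 2 Rbpj probes went opposite ways, at 1.62-fold and 0.739-fold (adjusted p = 0.119 and 0.156).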

How the data were processed

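Members and gene lists were chosen with earlier results of these data known. RNA of 6 samples was read on one-colour Agilent mouse arrays. The authors deposited spot intensity as Feature Extraction 10.7.1.1 gave it (per the file headers background subtracted), and a table of log2 values with a median of 3.16 on all 6 arrays, correlating at 0.996 to 1 with the scanner values and used as an alternative. From the intensities, log2 minus the array's 75th percentile over 59305 non-control spots was computed, outlier spots (163 to 251 per array) were left out and spots of a probe averaged. Probes were fitted with lmFit and eBayes of limma 3.58.1 (R 4.3.3), and p-values adjusted by Benjamini-Hochberg over 24753 probes. Each list gene is read by its tested probe of highest signal. Named probes are the constant region probes, up to 8 increases and 8 decreases past 2-fold, the 5 of highest signal, and any with an adjusted p under 0.05; other variable probes, Derl3, Xbp1 and Exo1 were chosen after their values were seen. Some genes of the lists are counted but not reported here by name. Alternatives changed background, scaling, filter, test, weights, pairing and arrays used. The fit was tested on simulated data. The number of arrays limits precision.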

Additional observations from a re-analysis of the deposited data

How the results depend on the processing

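Settings were changed one at a time, except that normexp background came with an offset of 50, in one setting with quantile normalization too, and that the trend and robust options were set together, and the cause of each shift was not tested unless the construction gives it. The larger moves in the counts of members called higher (6), called lower (1) and with an adjusted p under 0.05 (1) were as follows. Smaller moves of the higher count, not listed one by one, ran from 4, as with quantile normalization, to 8 with array weights. With normexp background and the 75th percentile, 2 were lower, as were 97 of all tested probes. In that setting 18 had an adjusted p under 0.05, as had 9308 of all tested probes. With normexp background and quantile normalization, 1 was higher and 3 had an adjusted p under 0.05. Over all tested probes these counts were 157 and 59. Without a filter 11 were higher, among 18636 of all probes. Requiring all 6 arrays above background gave 3 with an adjusted p under 0.05, as had 94 of all probes tested there. The methods' t-test gave 0 lower and 0 after adjustment, against 194 and 1 of all tested probes. The trend and robust options gave 4 after adjustment, against 980 of all tested probes. Array weights gave 3 lower and 10 after adjustment, against 563 and 3999 of all tested probes. IgD was called under all 13 other settings and without any 1 array.

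The numbers of the samples do not pair them (same-number correlations of deviations 0.18, 0.06 and 0.12), and a replicate block gave 0 members with an adjusted p under 0.05, against 1 of all tested probes.

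Leaving out 1 array gave 6 to 8 members higher, 1 to 4 lower (2 without control 2 or CD25-deficient sample 1, 4 without CD25-deficient sample 3), 1 to 2 with an adjusted p under 0.05 (2 without CD25-deficient sample 3) and medians from -0.33 to 0.11 (0.11 without control 2). Over all tested probes these settings gave 490 to 1097 higher, 324 to 484 lower and 2 to 136 with an adjusted p under 0.05. Each of these counts was largest without CD25-deficient sample 3. IgG2c was at 0.91 without control 3, under 2-fold, and A_55_P1960148 at 0.87, 0.98 and 0.88 without control 2 and CD25-deficient samples 1 and 2.

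Signs turned for members that had not been called. The kappa constant probe went to -0.37 with quantile normalization, with and without normexp background, and in the deposited values, to -0.32 with normexp background and the 75th percentile, and from -0.08 to 0.13 without 1 array. Lambda constant 2 went to -0.24 with quantile normalization and in the deposited values, and to -0.14 and -0.22 with normexp background and the 75th percentile or quantiles. IgM went to 0.05 when arrays were centred on the median, to 0.07 with array weights, and from -0.21 to 0.12 without 1 array. Lambda constant 1 went to 0.06 with array weights, and A_52_P578436 from -0.54 to 0.14 without 1 array. Low signal limits the IgG1, IgG2c and far constant probes, which lie near background.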
